A study of Homo sapiens with 6 samples.

Results

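The cytosolic ribosomal protein genes encode the protein part of the ribosomes that translate nuclear mRNAs. Members were taken from the deposited table by gene symbol: RPL or RPS with a number and at most one further letter A, X or L, plus RPLP0, RPLP1, RPLP2 and RPSA. Symbols of RPS6 kinases and of pseudogenes were left out. This gave 77 of the 11911 genes in the table, 32 of the small ribosomal subunit and 45 of the large subunit. RNA was sequenced from RS4;11, a human leukemia cell line of the B-precursor lymphoblastic type that has a KMT2A::AFF1 fusion. The sample titles name 3 libraries with asparagine (+Asn) and 3 without it (-Asn, called asparagine-depleted here), and the series dates the RNA to 16 hours after the amino acid was withdrawn. For all 6 samples the labels enter the same asparagine-free medium with 10% dialyzed serum, so what the cells with asparagine received is not stated, and no genotype or allele separates the groups. The table's column names may abbreviate asparaginase for the depleted arm and untreated for the other, which the labels do not settle. All 6 column names also begin with Ctrl, a prefix that no sample title explains. All libraries come from a single cell line, and no label ties the libraries of a group to separate cultures. The p-values therefore describe only how these libraries vary, and that variation may be technical.

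A ribosome is built from ribosomal RNA and about equal numbers of each ribosomal protein, and making ribosomes takes a large part of the biosynthetic capacity of a growing cell. The mRNAs of these proteins typically begin with a terminal oligopyrimidine tract, or TOP: a C at the cap followed by a run of C or T. Through this tract the kinase mTORC1, which responds to amino acids, and the protein LARP1 control their translation and stability. Several ribosomal proteins also act outside the ribosome, among them RPL5, RPL11 and RPL23, which bind the p53 regulator MDM2.

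RefSeq start sites (GRCh38.p14) were matched by symbol for 62 of the 77 members. Each window below runs from 15 bases before the annotated start through the first 15 transcribed bases, on the gene's strand, and capitals mark a C at the first transcribed base with the unbroken C or T run that follows, if that run has at least 4 bases. The set shows members that fell with asparagine depletion, members that did not pass the test, and the single member that rose.
RPSA, lower, chr3:39406705-39406734, plus strand: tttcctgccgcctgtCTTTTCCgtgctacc
RPL24, lower, chr3:101686704-101686733, minus strand: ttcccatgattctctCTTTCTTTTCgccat
RPL14, lower, chr3:40457324-40457353, plus strand: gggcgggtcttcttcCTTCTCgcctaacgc
RPS25, lower, chr11:119018329-119018358, minus strand: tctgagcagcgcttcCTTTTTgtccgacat
RPL29, lower, chr3:51995881-51995910, minus strand: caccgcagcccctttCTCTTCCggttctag
RPL4, lower, chr15:66504841-66504870, minus strand: tacagcgggagtggtaagcacttccttttc
RPLP2, lower, chr11:809952-809981, plus strand: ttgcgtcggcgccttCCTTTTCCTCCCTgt
RPL11, lower, downstream start, chr1:23691791-23691820, plus strand: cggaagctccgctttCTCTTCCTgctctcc
RPL11, lower, upstream start, chr1:23691764-23691793, plus strand: cgcctcctggcccataaggccctcggccgg
RPS6, did not pass, chr9:19380222-19380251, minus strand: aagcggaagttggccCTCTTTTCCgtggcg
RPL22, did not pass, chr1:6199581-6199610, minus strand: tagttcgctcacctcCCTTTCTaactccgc
RPS27L, higher, chr15:63157463-63157492, minus strand: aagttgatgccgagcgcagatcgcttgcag
The run stood at an annotated start of 45 of the 62 members (72.6%), against 689 of the 8972 tested genes with an entry (7.68%). It was read only at the first transcribed base and on the gene's strand, and RPL11 shows that annotated starts of a gene can differ in it. Of all 35116 starts in the table, 4.07% held it.

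Every member passed the filter on low values. Values are normalized CPM (reads scaled to depth by the authors). Most members were abundant: with asparagine 18 of the 77 had a mean above 1000 CPM, and 9 had a mean under 30. The members together took 4.49%, 4.71% and 4.83% of the reads in libraries 1, 2 and 3 with asparagine. In the depleted libraries they took 4.43%, 2.49% and 2.40%. Their summed CPM in depleted libraries 1, 2 and 3 was 87.9%, 47.6% and 46.3% of the mean with asparagine. Depleted library 1 was therefore near the level with asparagine, and depleted libraries 2 and 3 were at less than 50% of it.

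The same split ran through single genes. On the log2(CPM + 1) scale, relative to each gene's mean with asparagine, the members had medians of -0.14, -1.03 and -1.12 in depleted libraries 1, 2 and 3. All genes tested had medians of 0.02, -0.0012 and -0.0059 in the same libraries. In depleted library 1, 50 members lay below each library with asparagine and 10 lay above each of them, where the background shares over all genes tested were 41.5% and 43.9%. In depleted libraries 2 and 3 together, 73 of 77 lay below each library with asparagine (background 44.3%). The exceptions were RPL36A, RPL39, RPS27 and RPS27L. Across the 77 members, which share libraries and are not replicates, the deviations in depleted libraries 2 and 3 had Pearson's r of 0.965, and those in libraries 1 and 2 had r of 0.393. Members also spread apart: the interquartile range of the deviations was 0.0652 to 0.105 in libraries with asparagine, and 0.347, 0.744 and 0.702 in depleted libraries 1, 2 and 3.

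**Figure D1:**
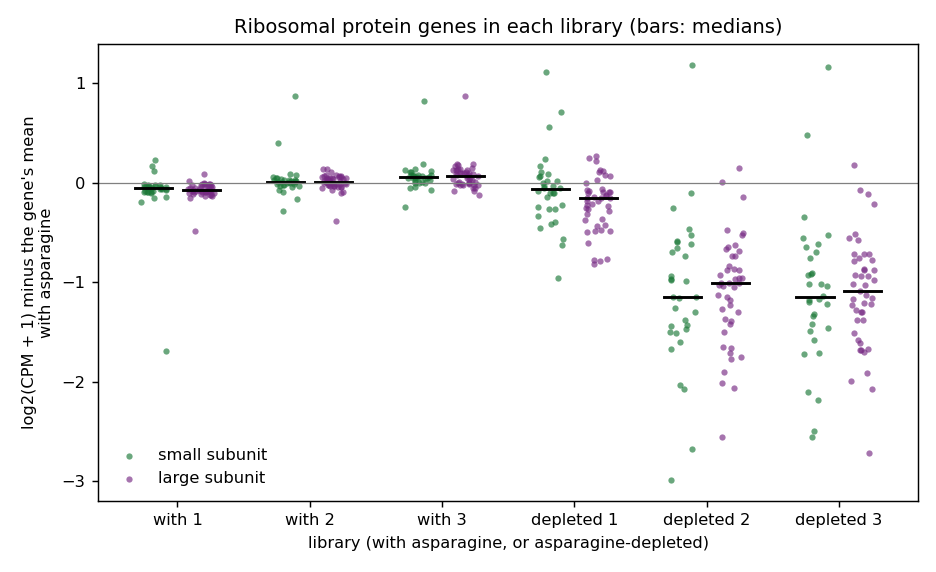
Each point is a ribosomal protein gene in a library: log2(CPM + 1) minus the gene's mean over the 3 libraries with asparagine, coloured by subunit, with black bars at the medians. The points of depleted library 1 lie near 0, while those of depleted libraries 2 and 3 centre near -1.03 and -1.12, and RPS27L stands alone above 1 in all depleted libraries.

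Of the 77 members, 40 were lower and 1 was higher without asparagine by limma, with p-values adjusted by the Benjamini-Hochberg method over all 11892 genes tested and a threshold of 0.05, and 36 did not pass. The background was 26.2% lower and 25.1% higher, and the members had 51.9% and 1.30%. The members' median log2 fold change, depleted minus with asparagine, was -0.74, against 0.01 for all genes tested. The groups did not overlap for 49 members with depleted libraries below (background 30.8%) and for 1 with them above (background 30.2%). All 40 members called lower were below each library with asparagine in depleted library 1 as well, as were 10 of the 36 that did not pass. The call itself uses depleted library 1, so this is not a result separate from the call. Over all genes tested, 41.5% were below in that library, and the share among all genes called lower is not given here. Because the values depend on how libraries were scaled, fewer ribosomal protein mRNAs per cell and a change in total RNA per cell cannot be told apart.

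The number of calls rested on single libraries. Without depleted library 1, 72 members (93.5%) were lower (background 41.6%) and the members' median was -1.09. Without depleted library 2 the count was 7 (9.09%, background 16.5%), and without depleted library 3 it was 11 (14.3%, background 18.0%). Leaving out library 1, 2 or 3 with asparagine gave 11, 8 and 10 (14.3%, 10.4% and 13.0%, backgrounds 15.3%, 15.0% and 18.1%). In each of these fits except that without depleted library 1, the share of lower members was below the background. With depleted library 1 alone against the 3 libraries with asparagine, 23 members (29.9%) were lower and 2 higher, RPS27L and RPS27 (backgrounds 27.1% and 26.4%), with a median of -0.14. That fit holds no spread of the depleted group, so its calls describe depleted library 1 only. The calls of 7 members held without each single library and in each other setting tried at the same threshold: RPL8, RPS26, RPL24, RPL6, RPL4, RPS25 and RPL14. The call of RPS27L also held in all of them. The share of all genes whose calls held in this way was not determined, so these members have no background beside them. Rescaling by a trimmed mean of log ratios or median ratios gave 44 and 43 lower members (57.1% and 55.8%, backgrounds 25.5% and 26.4%). Quantile normalization gave 22 (28.6%, background 24.9%). Voom weights on the recovered reads gave 27 lower (35.1%) and 1 higher (backgrounds 21.1% and 30.3%). The voom median of all genes was 0.15 and that of the members -0.59. At a threshold of 0.01, 6 members (7.79%) were lower, below the background of 14.3%. Each of the other 33 lower calls was lost when depleted library 2 was left out (adjusted p up to 0.156 over the single libraries left out), and none was lost without depleted library 1.

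**Figure D2:**
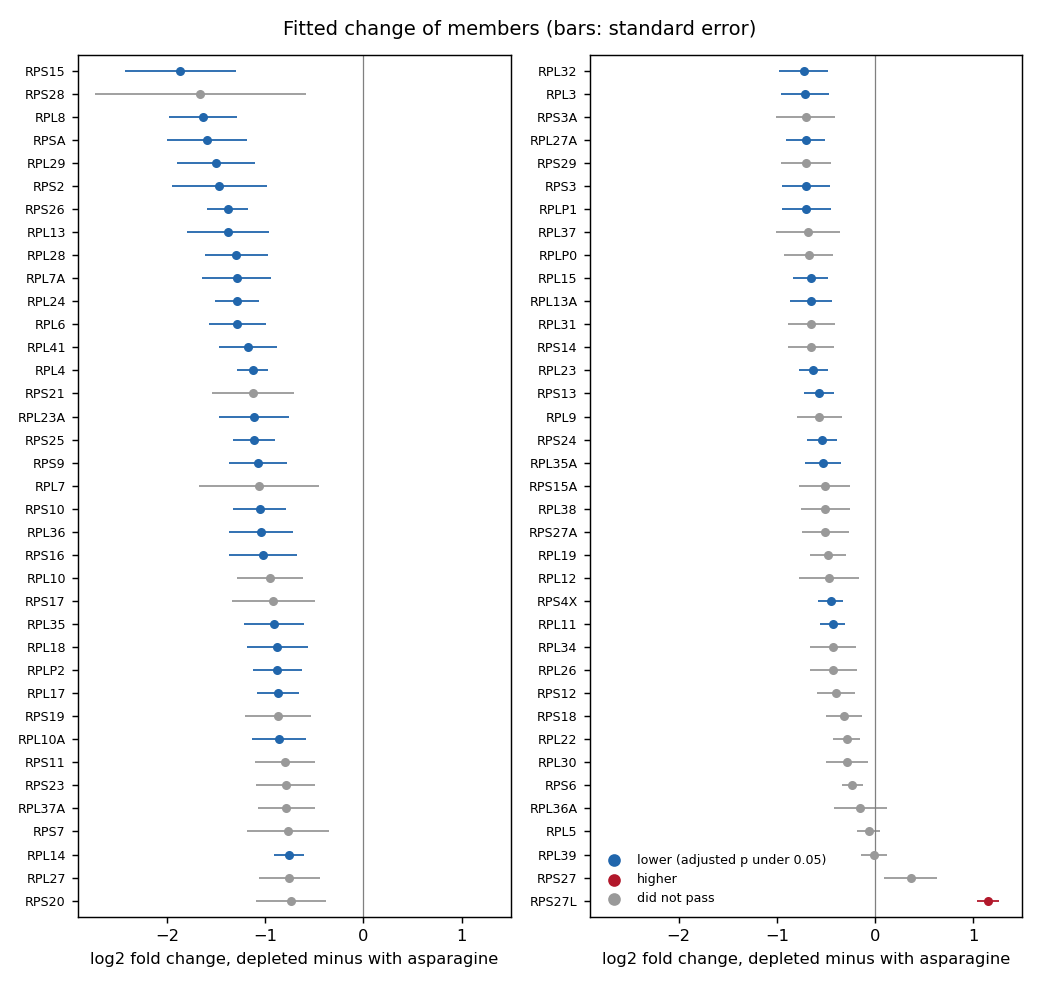
Each row is a member (74 of the 77 are drawn), ordered by its log2 fold change (depleted minus with asparagine, x axis), with the standard error of the limma fit as a bar. Blue members were lower, red was higher and grey did not pass; the order runs from RPS15 at -1.86 to RPS27L at 1.15.

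The 7 members whose lower calls held in these settings belong to both subunits. RPL8, a core large-subunit protein near the peptidyl transferase centre (chromosome 8, 144789765 to 144792587 on GRCh38), had 4014, 4142 and 3970.2 CPM with asparagine and 2379, 970.4 and 957.9 in depleted libraries 1 to 3. It was among the 2 most abundant members per kilobase of transcript, at 4727 CPM per kb with asparagine beside 4885 for RPLP1. All depleted values of RPL8 lay below all others, and library 1 lay between the other depleted libraries and those with asparagine. The fitted log2 fold change was -1.63, with an SE of 0.34 and a limma adjusted p of 0.00832. Its size varied: it was -1.03 after a correction for GC content, -0.76 with depleted library 1 alone and -0.75 with each library's GC slope in the fit.

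RPL4, whose loop reaches into the nascent peptide tunnel (chromosome 15, 66498015 to 66524532), had 1020.5, 1025 and 1137 CPM with asparagine and 603, 430.7 and 437 in depleted libraries. Here depleted library 1 was close to the other depleted libraries, and the groups were far apart (log2 fold change -1.13, SE 0.16, limma adjusted p = 0.00182). RPL24, which sits at the interface of the subunits, gave 164, 179 and 169 CPM and 99.1, 63.4 and 53.1 CPM. Its groups did not overlap (log2 fold change -1.29, SE 0.23, limma adjusted p = 0.00447). RPL6 and RPL14, neighbours on the outer face of the large subunit, fell by 1.28 and 0.76 on the log2 scale (limma adjusted p = 0.0106 and 0.0073). Among small-subunit members, RPS25, which some viral entry sites on mRNA need for initiation, had 338, 368 and 382 CPM with asparagine and 234, 146 and 135 CPM without asparagine. It too fell in each depleted library, by 1.11 on the log2 scale in the fit (SE 0.21, limma adjusted p = 0.00605). RPS26 fell by 1.38 (SE 0.21, limma adjusted p = 0.00258) but from 5.50 ± 0.449 to 1.55 ± 0.713 CPM (SD, n = 3), on 36 to 302 reads per library. With depleted library 1 alone the log2 fold changes were smaller, at -0.81 for RPL4, -0.78 for RPL24, -0.61 for RPL6, -0.48 for RPL14, -0.63 for RPS25 and -0.96 for RPS26.

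**Figure D3:**
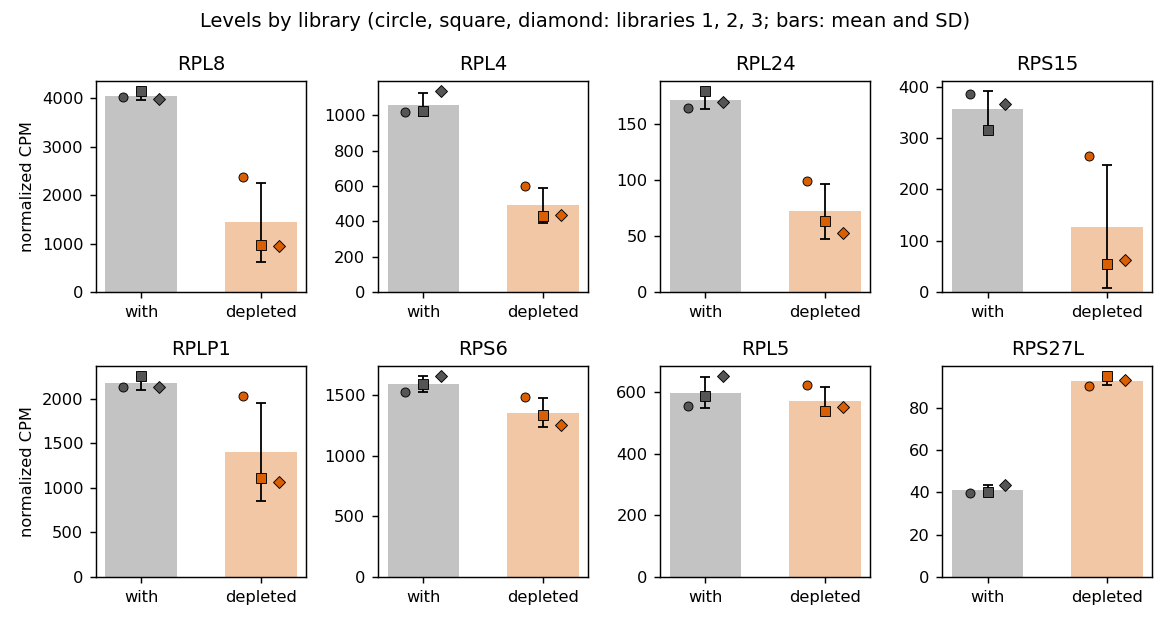
Normalized CPM of 8 members in the 6 libraries; circles, squares and diamonds are libraries 1, 2 and 3, bars are means and error bars SDs (n = 3). RPL8, RPL4 and RPL24 are lower in each depleted library, RPS15 and RPLP1 mainly in libraries 2 and 3, RPS6 and RPL5 are close between groups, and RPS27L is above 90 CPM in each depleted library.

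Large fitted decreases among members with at least 100 CPM were less even between libraries. RPS15, needed for late maturation of the small subunit, had 385, 316 and 366 CPM with asparagine and 265, 54.7 and 62.1 CPM in depleted libraries (-1.86, SE 0.56, limma adjusted p = 0.0309). In RPS15 depleted library 1 was nearer to the group with asparagine than to the other depleted libraries, and with that library alone the log2 fold change was -0.42. RPSA, the small-subunit protein also known as the laminin receptor, stood at 336, 359 and 328 CPM with asparagine and at 230, 82.6 and 74.1 in depleted libraries (-1.59, limma adjusted p = 0.0169). Its call was lost without library 1 or 2 with asparagine or depleted library 2 (adjusted p up to 0.0605). RPL29 and RPS2 had log2 fold changes of -1.50 and -1.47 (limma adjusted p = 0.0192 and 0.0404). With depleted library 1 alone RPSA, RPL29 and RPS2 were at -0.57, -0.49 and -0.22. The calls of RPS15, RPL29 and RPS2 were lost when any library except depleted library 1 was left out, with adjusted p up to 0.126.

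The subunits had similar medians. Of 32 small-subunit genes, 13 (40.6%, against 26.2% of all genes) were lower, 1 (3.12%, against 25.1%) was higher and 18 did not pass, with a median log2 fold change of -0.75. Of 45 large-subunit genes, 27 (60%, against the same 26.2%) were lower, none was higher and 18 did not pass, with a median of -0.73. Beside the genes named so far, the lower small-subunit genes included RPS3, RPS4X, RPS9, RPS10, RPS13, RPS16 and RPS24. The other lower large-subunit genes included RPL3, RPL7A, RPL10A, RPL11, RPL13, RPL13A, RPL15, RPL17, RPL18, RPL23, RPL23A, RPL27A, RPL28, RPL32, RPL35, RPL35A, RPL36, RPL41, RPLP1 and RPLP2. In small-subunit genes the median was -0.067 in depleted library 1 and -1.15 in both other depleted libraries. Large-subunit genes had -0.16, -1.01 and -1.09. The difference between the subunits was not tested.

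The P stalk recruits translation factors to the ribosome and consists of RPLP0 and copies of RPLP1 and RPLP2. RPLP1 had 2130.3, 2256 and 2135 CPM with asparagine and 2031, 1110.0 and 1063 in depleted libraries 1 to 3. It passed narrowly (log2 fold change -0.70, limma adjusted p = 0.0498), and its call was lost when any library except depleted library 1 was left out (adjusted p up to 0.156) and in 9 of 15 other settings. RPLP2 was lower as well, from 802 ± 20.2 to 458 ± 181 CPM (SD, n = 3; -0.88, limma adjusted p = 0.0255, up to 0.0889 with a library left out). RPLP0 had 853, 911 and 836 CPM with asparagine and 816, 431 and 451 without, groups that did not overlap, and did not pass (-0.68, limma adjusted p = 0.0541). It passed narrowly when rescaled by a trimmed mean or median ratios (limma adjusted p = 0.049 and 0.04998), and after the GC correction (-0.45, adjusted p = 0.0291). In all stalk genes depleted library 1 was the closest to the group with asparagine.

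RPL5 and RPL11 form a particle with the 5S ribosomal RNA that, with RPL23, can bind and inhibit MDM2. RPL5 had 554, 587 and 653 CPM with asparagine and 624, 539.6 and 551 in depleted libraries. The groups overlapped, and the log2 fold change was -0.06 (95% interval -0.34 to 0.214, limma adjusted p = 0.66). RPL11 had 905, 971 and 1049 CPM and 838, 684 and 653 CPM, a modest decrease present in each depleted library (-0.43, SE 0.13, limma adjusted p = 0.0315). RPL23 fell from 603 ± 50.9 to 393 ± 63.8 CPM (SD, n = 3; -0.63, limma adjusted p = 0.0122). The call of RPL11 was lost without any library except depleted library 1 (adjusted p up to 0.116) and in 4 of 15 other settings (up to 0.157), and that of RPL23 without library 3 with asparagine or depleted library 2 (up to 0.0537).

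Of 6 proteins that line the mRNA path on the small subunit, among them RPS2 and RPS3 at its entry and RPS14, RPS26 and RPS28 at its exit, 4 (66.7%) were lower and 2 did not pass, against 26.2% lower and 51.9% lower over all genes and all members. Their median was -1.27. RPS3, also a DNA repair factor, had 1488, 1643 and 1643 CPM with asparagine and 1474, 806 and 787 without. Its call was narrow (log2 fold change -0.70, limma adjusted p = 0.0486) and was lost without any library except depleted library 1 (up to 0.154). RPS14, whose loss on chromosome 5 is linked to a myelodysplastic syndrome, did not pass (-0.65, limma adjusted p = 0.0546). RPS28 values were scattered, at 4.53, 31.7 and 30.6 CPM with asparagine and 25.3, 1.26 and 2.04 in depleted libraries. Library 1 with asparagine stood apart from its group in this gene, and the adjusted p was 0.227.

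Of 9 large-subunit proteins in or around the nascent peptide tunnel, RPL4, RPL17, RPL23A and RPL35 were lower (44.4%, against 26.2% of all genes and 51.9% of the members). RPL19, RPL26, RPL31, RPL38 and RPL39 did not pass, and the median was -0.65. RPL39, a small protein inside the tunnel, had 25.8, 25.7 and 31.2 CPM with asparagine and 28.0, 27.7 and 26.1 CPM in depleted libraries. Its groups overlapped fully (log2 fold change -0.01, 95% interval -0.33 to 0.305, limma adjusted p = 0.938). RPL26, RPL38 and RPL19 had log2 fold changes of -0.42, -0.51 and -0.48 (limma adjusted p = 0.174, 0.125 and 0.0638).

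Mutations of many of these genes cause Diamond-Blackfan anemia, an inherited failure of red cell production. Of 19 such members, 8 (42.1%) were lower and none higher, above the 26.2% of all genes and below the 51.9% of all members, with a median of -0.70. The 8 were RPS10, RPS24, RPS26, RPL11, RPL15, RPL18, RPL35 and RPL35A. RPS19, the gene most often affected, had 1149, 1211 and 1174 CPM with asparagine and 1154, 493 and 471 in depleted libraries. Depleted library 1 lay within the range with asparagine, and RPS19 did not pass (-0.87, limma adjusted p = 0.0645).

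Several abundant members did not pass the test. RPS6, the substrate of the S6 kinases downstream of mTORC1 (chromosome 9, 19375715 to 19380254), had 1522, 1590.3 and 1657 CPM with asparagine and 1481, 1333 and 1251 in depleted libraries. The groups did not overlap, but the log2 fold change was -0.23 (95% interval -0.49 to 0.020) and did not pass (limma adjusted p = 0.106). RPL30 had 1246, 1303 and 1402 CPM with asparagine and 1529.5 in depleted library 1, above all others, with 915 and 894 in libraries 2 and 3 (-0.29, limma adjusted p = 0.29). RPL22, a protein deleted or mutated in some T-cell leukemias, stood at 183 ± 16.7 and 149.7 ± 16.4 CPM (SD, n = 3; limma adjusted p = 0.113). RPS18 had a log2 fold change of -0.31 (limma adjusted p = 0.185). Without depleted library 1, the limma fit gave adjusted p of 0.000971 for RPS6 (log2 fold change -0.30), 2.08e-05 for RPL30 (-0.54), 0.00931 for RPL22 (-0.34) and 6.02e-05 for RPS18 (-0.51). This fit keeps only depleted libraries 2 and 3, which lie close together (Pearson's r of 0.996 across genes). Its small p-values thus leave out the spread between the depleted libraries, and 41.6% of all genes were lower in it. RPL5 did not pass there either (-0.13, limma adjusted p = 0.134). After the GC correction RPS6 was lower (log2 fold change -0.51, limma adjusted p = 0.0162), as was RPL22 (-0.39, adjusted p = 0.0119).

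The exception to the decrease was RPS27L, a close copy of RPS27 that is a known p53 target gene (chromosome 15, 63125872 to 63158021). It had 39.9, 40.4 and 43.6 CPM with asparagine and 90.5, 94.97 and 93.4 in depleted libraries 1, 2 and 3. Unlike most members, it was at nearly the same level in all depleted libraries, and the groups were far apart. The mean rose 2.25-fold, and the log2 fold change was 1.15, with an SE of 0.11 and a limma adjusted p of 0.000561. It was 0.72 after the correction for GC content described below (adjusted p = 0.00316). RPS27 itself had only 7.81 ± 2.22 and 10.4 ± 3.11 CPM (SD, n = 3) and did not pass (limma adjusted p = 0.284). With depleted library 1 alone the log2 fold change of RPS27 was 0.71. That library had 13.1 CPM, and depleted libraries 2 and 3 had 7.02 and 11.0 CPM. With each library's GC slope in the fit it was 0.79 (limma adjusted p = 0.0134), but that fit nearly repeats the values of depleted library 1 alone. The values of RPS27 are uncertain, since counting could split reads between RPS27 and its 15 annotated pseudogenes. RPL3L, RPL10L and RPL39L, further copies with restricted expression, had no row in the deposited table under these symbols.

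Many ribosomal protein genes have processed pseudogenes of near-identical sequence. With asparagine, all members under 30 CPM other than RPS28 and RPL41, each with 3, had at least 11 pseudogenes under their own name in the annotation. Across the 77 members, the CPM per kilobase with asparagine had a Spearman's rho of -0.455 with that number, and the log2 fold change had 0.194. The table also lists 14 ribosomal protein pseudogenes, of which RPSAP58 and RPL23P8 (14.3%) were lower and RPS10P7 (7.14%) was higher, both shares below the background of 26.2% and 25.1%. RPSAP58 had 275, 288 and 281 CPM with asparagine and 220, 86.7 and 78.9 in depleted libraries, which follows the pattern of RPSA. Counting could split reads between RPSA and this copy, and, with no strand setting stated, between a gene and an antisense partner.

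The decrease varied with the base composition of the transcripts. Across the 77 members, Spearman's rho between the log2 fold change and GC content was -0.554, and across the 11344 tested genes with a GC value it was -0.514. All 7 members in the class with the highest GC content (of 5 classes of like size) were lower, among them RPL8, RPL36, RPLP2, RPS2, RPS9 and RPS15. Of 18 in the second lowest class, 3 were lower. These counts are not set against the share of all genes called lower in the same class, and the medians of all genes also fell with GC content. RPS27L was the single member in the lowest class. From the second lowest to the highest class, the members' medians were -0.54, -0.73, -0.93 and -1.47, and those of all genes 0.30, 0.02, -0.34 and -0.61. In the lowest class RPS27L was at 1.15 and all genes at 0.56. After a correction for GC content in each library, 56 members (72.7%) were lower and 1 higher (backgrounds 34.3% and 35.2%). The median was -0.74 and rho with GC content was 0.119. The 40 lower calls were all among the 56, and the 16 gained included RPL10, RPL31, RPLP0, RPS14 and RPS27A. The GC-corrected medians in depleted libraries 1, 2 and 3 were -0.14, -1.02 and -1.06. When instead the GC slope of each library was a term in the fit, 24 members (31.2%) were lower and 2 higher, RPS27L and RPS27, with a background of 33.3% in each direction and a median of -0.13. The share of lower members in this fit was near its background. The slope is 1 value per library, and the fit gave nearly the log2 fold changes found with depleted library 1 alone. These were -0.75 and -0.76 for RPL8, -0.43 and -0.42 for RPS15, and 0.20 and 0.22 for RPL30. GC content and the split of depleted library 1 from the other depleted libraries therefore cannot be told apart in this fit. The part of GC content in the result was not tested beyond these fits.

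**Figure D4:**
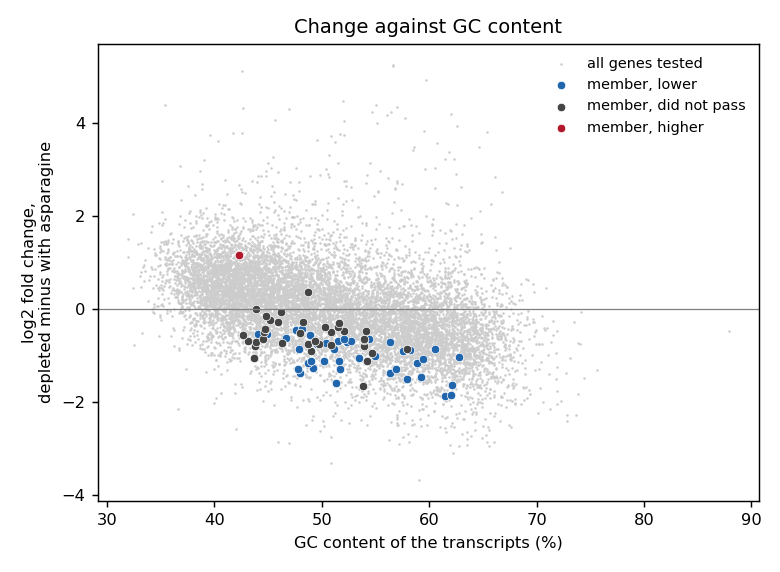
Log2 fold change (depleted minus with asparagine, y axis) against the GC content of the transcripts in percent (x axis); grey points are all genes tested with a GC value, larger points the members. Members fall with rising GC content, with rho of -0.554, and lie mostly in the lower part of the grey cloud at the same GC content.

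Members with and without the start run had similar medians. The 45 members with the C and pyrimidine run at an annotated start had a median log2 fold change of -0.71, with 24 lower. The 17 members with an entry but without the run had -0.75, with 10 lower. Beside these counts, 51.9% of all members and 26.2% of all genes were lower. The run was read only at the first annotated base, so a tract that begins a few bases away is missed. The window of RPL4 holds such a run further downstream. The 17 are therefore not a group without a TOP, and the part of the tract in the decrease was not tested. Of 644 other tested genes with the run, 177 were lower and 157 higher, and their median was -0.07. These 177 are 27.5% of the 644, near the background of 26.2%.

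Some ribosomal proteins have other symbols. FAU, which encodes a ribosomal protein fused to a ubiquitin-like domain, was lower, at 456 ± 13.7 CPM with asparagine and 234 ± 124 without (SD, n = 3; limma adjusted p = 0.0294). Its call was lost without any library except depleted library 1 (adjusted p up to 0.0979). RPS27A, a ubiquitin fusion among the members, had a log2 fold change of -0.51 and did not pass (limma adjusted p = 0.115). RACK1, a signalling scaffold on the small subunit, and RPL36AL did not pass (-0.46 and -0.60, limma adjusted p = 0.0549 and 0.059). Of 7 such genes tested, 2 (28.6%) were lower and none higher, a share near the background of 26.2% lower. RACK1 and RPL36AL passed after the GC correction (-0.22 and -1.03, limma adjusted p = 0.0269 and 0.0305).

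Among 18 other mRNAs known to carry a TOP, 7 (38.9%) were lower and none higher, with a median of -0.51, beside 26.2% lower and 25.1% higher over all genes. EIF3F, a subunit of an initiation factor, fell by 1.25 on the log2 scale (limma adjusted p = 0.0135), EEF1G, of the elongation factor 1 complex, by 1.11 (adjusted p = 0.0347), and the nucleolar chaperone NPM1 by 0.85 (adjusted p = 0.00334). EEF1A1, the main elongation factor, had 1168, 1311 and 1408 CPM with asparagine and 1228, 440.6 and 425 in depleted libraries, the same split as in the members (-1.07, limma adjusted p = 0.0575). The EIF3F call was lost without library 1 or 2 with asparagine or depleted library 2 (adjusted p up to 0.0560), and the EEF1G call without any library except depleted library 1 (up to 0.110). EEF1A1 passed after the GC correction (-1.18, limma adjusted p = 0.033).

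Of 12 regulators of TOP mRNAs and of RPS6, 1 (8.33%) was lower and 2 (16.7%) were higher, both below the background of 26.2% lower and 25.1% higher, with a median of -0.10. The kinase gene MTOR was the lower one, and LARP4B and PDCD4 were higher. PDCD4, an inhibitor of the initiation helicase eIF4A that S6 kinase marks for degradation, had 43.5, 40.9 and 47.9 CPM with asparagine and 95.02, 134 and 143 in depleted libraries (log2 fold change 1.45, limma adjusted p = 0.00126). EIF4EBP1, RPTOR and RPS6KB2 did not pass (-0.66, -0.58 and -0.54, limma adjusted p = 0.0696, 0.0568 and 0.103).

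Of 12 chaperones and assembly factors that handle single ribosomal proteins or late subunits, 6 (50.0%) were lower and 1, NVL (8.33%), was higher, beside 26.2% lower and 25.1% higher over all genes, with a median of -0.38. GRWD1, the chaperone of RPL3, had 213, 214 and 185 CPM with asparagine and 128, 69.5 and 66.9 in depleted libraries (-1.27, limma adjusted p = 0.00726). AAMP, which escorts RPL10, fell by 0.96 (adjusted p = 0.0086) and HEATR3, which carries RPL5 and RPL11, by 0.75 (limma adjusted p = 0.0071). PDCD2L, a partner of RPS2, fell by 0.99 (limma adjusted p = 0.0108). In depleted library 1 these factors had a median of -0.50, against -0.14 for the members, and in library 2 -0.47 against -1.03. The 4 named calls held without each single library. The client RPL10 had 759, 778 and 767 CPM with asparagine and 720.0, 296 and 294 in depleted libraries, and did not pass (-0.95, limma adjusted p = 0.0519).

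The values corresponded to 29971364 to 51127073 reads per library. B-cell precursor markers were present, with summed levels of 4195 to 4469 CPM with asparagine and 3215 to 4129 in depleted cells. All 12 were in the table, 5 (41.7%) lower and 1 (8.33%) higher against 26.2% lower and 25.1% higher over all genes. The lower ones were VPREB1 (mean 438 CPM with asparagine and 120 without), IGLL1 (854 and 256), CD22, CD79B and DNTT. PAX5 was higher (1004 and 1333). DNTT and BLNK stayed under 5 CPM. None of 6 T-cell and 5 erythroid markers had a row; of 6 myeloid markers only ITGAM did, at 1.32 to 2.11 CPM, and of 5 stromal markers COL1A1 and PDGFRB did, at summed levels of 65.7 to 76.3 CPM with asparagine and 36.0 to 48.4 without. Across genes, Pearson's r of log2 values was 0.996 between depleted libraries 2 and 3, and 0.940 and 0.933 between these and depleted library 1. Their part in the ribosomal protein result was not tested.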

How the data were processed

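RNA of 3 libraries with asparagine and 3 without was sequenced. The submitters' processing notes name STAR, featureCounts (Subread), FastQC and GRCh38. Versions, annotation, strand setting and scaling: not given in the sources used here. The deposited table holds a normalized signal in CPM made by the authors. Each value was a whole multiple of 1 step per column (100% within 1e-06 of a read), which gave the reads. Columns were matched by arm and replicate number in their names (unt and aspg, each after the prefix Ctrl), which are not the sample titles.

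Values were analysed with limma 3.58.1 (R 4.3.3) as log2(CPM + 1), with the group as the only term and an intensity trend, for 11892 genes with at least 1 CPM in 3 libraries. P-values were two-sided and Benjamini-Hochberg adjusted over these genes. No count model was used. GC content, transcript length and positions came from GENCODE 29, and GC values exist for all 77 members and for 95.4% of genes (11363). The GC correction subtracted a lowess trend (span 0.3) in each library. The fit was also run on simulated data with independent noise for each gene and library. Those data do not hold the split between the depleted libraries, so that run lends no support to the calls.

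The members and the lists were chosen with earlier results of these data known. Members given in full were the 6 most abundant, the 6 most and 6 least negative with at least 100 CPM, the P stalk, the RPL5, RPL11 and RPL23 set and RPS27L. Genes outside the members came from fixed lists, at most 4 per list by size of change above 5 CPM. Other members were named by role list, and members and list genes named beyond these were chosen after their values were seen. Alternatives were other pseudocounts, filters, scalings and moderation, a replicate block, left-out libraries, a GC correction and a threshold of 0.01. A GC slope covariate, voom weights on the recovered reads and the genes with a GC value alone were added after the data were seen. Values of some genes that this rule takes are not reported here, though counts and medians include them.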

Additional observations from a re-analysis of the deposited data

How the results depend on the processing

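The count of 40 lower members was 22 with quantile normalization, 23 (and 2 higher) without depleted libraries 2 and 3, 6 at a threshold of 0.01, and 24 (and 2 higher) with the GC slope as a covariate. It ranged from 7 (9.09%) to 72 (93.5%) with single libraries left out and the median ran from -1.09 to -0.58. The median of -0.74 became -0.14 without depleted libraries 2 and 3 and -0.13 with the GC slope. Other settings kept the count between 27 (voom) and 56 (GC correction).

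Same-numbered libraries correlated in their deviations from the group means at 0.083, -0.65 and 0.69. With 3 libraries per group the deviations within a group depend on each other, so these values cannot show whether the libraries were paired. With the replicate block 47 members (61.0%, background 25.1%) were lower and 1 higher, with a median of -0.74. Of the members, 9 gained a lower call, among them RPLP0 (limma adjusted p = 0.046). RPL11 and RPL35A lost their calls (limma adjusted p = 0.067 and 0.0624).

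Among named genes, signs turned only in those that had not passed, and none passed in the opposite direction. With quantile normalization RPS6 was at 0.093, RPL30 at 0.13 and RPL5 at 0.18. Without depleted libraries 2 and 3, values were 0.22 for RPL30, 0.064 for RPL5, 0.082 for RPS18, 0.022 for RPS6KB2, 0.56 for RPS28, 0.024 for RPL39, 0.013 for RPS27A, 0.081 for RPL38 and 0.13 for RPL26. With the GC slope they were 0.20 for RPL30, 0.035 for RPL5, 0.070 for RPS18, 0.054 for RPS6KB2, 0.47 for RPS28, 0.00255 for RPS27A, 0.074 for RPL38 and 0.10 for RPL26. The GC correction gave 0.069 for EIF4EBP1 and 0.068 for RPS6KB2, voom 0.072 for RPL5 and 0.12 for RPL39, and the trimmed mean 0.022 for RPL39. Leaving out library 3 with asparagine gave 0.000401 for RPL5 and 0.076 for RPL39, and leaving out depleted library 3 gave 0.017 for RPL39, whose lowest such value, without library 2 with asparagine, was -0.060. The cause was not tested. Depth limited RPS10, RPS26 and RPS28 most.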
